A study of Mus musculus with 16 samples.

Results

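Transcripts of the Mediator complex were measured in single two-cell mouse embryos that lacked or carried maternal KDM1A, a histone lysine demethylase also known as LSD1. The members were all genes whose symbol is Med followed by a digit, together with Cdk8, Cdk19 and Ccnc, which encode the kinases and the cyclin of the complex. This rule found 34 rows among 24063 genes. Of these, 33 encode Mediator subunits, and the remaining row is Med9os, an antisense RNA that lies beside Med9. The rule uses names alone and no measured value.

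Mediator is a large assembly that carries signals from transcription factors bound at enhancers and promoters to RNA polymerase II. Its core has a head and a middle that contact the polymerase, a tail that receives many activators, and MED14 as the backbone that joins them. A separable kinase module, made of CDK8 or its paralog CDK19, cyclin C, MED12 or MED12L, and MED13 or MED13L, docks onto the middle and hinders binding of the polymerase while it is attached. In the mouse, the two-cell stage is when the embryo's own genome becomes broadly transcribed and many RNAs stored in the oocyte are removed.

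The comparison was between 8 Δm/wt and 8 f/wt embryos. The Δm/wt embryos, labelled Lsd1 mko/wt or Lsd1 mat ko/wt, came from superovulated Kdm1a f/f::Zp3cre females, in which a Cre recombinase under the oocyte-specific Zp3 promoter removes the first Kdm1a exon, mated to wild-type B6D2F1 males, and so kept an intact paternal allele. The f/wt embryos came from superovulated Kdm1a f/f females without Cre, mated to the same kind of males. The females were of mixed C57BL/6J and 129 background, and every embryo was taken at the two-cell stage. The libraries were made from oligo-dT primed cDNA of 1 embryo each, so the reads lie towards the 3′ ends of transcripts. Which embryos shared a mother is not given in the sources used here, and p-values therefore measure the spread between these embryos.

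Library totals ranged between 4049168 and 14334244 reads in Δm/wt embryos and between 3212510 and 9337451 reads in f/wt embryos. The counts of f/wt embryos 2 and 3 were almost the same, with a mean chi-square of 1.89 per gene where the remaining 55 pairs of embryos from 1 group gave 45.6 to 366, and they were summed and counted as 1 sample. The comparison therefore had 8 Δm/wt and 7 f/wt samples. Values are given in CPM (reads of a gene per 1000000 reads) after TMM scaling. TMM multiplies each library total by a factor from a trimmed mean of gene ratios between libraries, here 0.719 to 1.37. Each value is thus relative to its own library, so that a loss of RNA from the whole embryo would not show. Stored maternal RNA cannot be told apart from RNA made by the embryo. In such libraries fewer cells of a type and less RNA per cell cannot be told apart either. Kdm1a itself had 0 to 4.01 CPM (median 0.695) in Δm/wt embryos and 0.986 to 20.2 CPM (median 10.7) in f/wt embryos. Its log2 fold change was -2.99 ± 1.02 (edgeR adjusted p = 0.0221), but reads near the 3′ end lie outside the deleted exon and do not check the deletion directly. Kdm1a was not called with Hprt, Gapdh and Ppia as reference genes (-2.08, adjusted p = 0.133) or in embryos 4 to 8 alone (-3.79, adjusted p = 0.0736).

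Marker lists set these libraries apart in 2 respects. The summed level of 12 two-cell and oocyte markers was 9679 to 18380 CPM in Δm/wt embryos and 1698 to 3610 CPM in f/wt embryos. The 6 that rose of 10 tested were the oocyte genes Zp3, Zp2, Gdf9, Bmp15 and Oosp1 together with Pou5f1. Zscan4c (log2 fold change 0.97), Zscan4d (0.34), Zfp352 (0.19) and Ddx4 (-1.57) were not called. Tdpoz4 (mean 0.0788 CPM in Δm/wt and 4.19 CPM in f/wt) and Usp17lc (0.815 and 3.19 CPM) were too low to be tested. Of 9 myeloid markers, 8 were tested and 7 were higher in Δm/wt. Their sum was 13.4 to 1950 CPM in Δm/wt embryos, highest in embryo 5, and 6.28 to 14.4 CPM in f/wt embryos. Without that embryo, 6 members rose and 8 fell, and the shares of all genes in that fit are not given here. Cumulus and granulosa markers had a median sum of 3.59 CPM in Δm/wt embryos and 2.68 CPM in f/wt embryos, and the groups overlapped. Cyp11a1 had 76 reads summed over the Δm/wt embryos and 2 over the f/wt embryos. Has2 had 70 and 7, Star 252 and 108, and Ptgs2 4 and 0. Tnfaip6 went the other way, with 22 and 157. Only Star had enough reads to be tested, and it was not called (log2 fold change 1.23). The source of these reads was not tested. Ptx3, Amh, Foxl2, Inhba and Fshr were at 0 counts in every sample. Prm1, Tnp1, Tnp2 and Odf1 of the sperm list and the globin genes of the red blood cell list were also at 0 counts throughout. Prm2 had 50 reads in Δm/wt embryos, of which 47 were in embryo 8, and 5 in f/wt embryos. Alas2 had 0 reads in Δm/wt and 23 in f/wt embryos. The oocyte and myeloid shifts both move with the Δm/wt group in every comparison given here, and their part in the results was not tested.

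The start regions are shown for 4 of the 5 members whose groups did not overlap, and were thus picked by their values. Med29 and Med26 were lower in Δm/wt embryos, and Med22 and Med15 were higher. Med19, also lower with no overlap but by less, is not shown. Each sequence runs 5′ to 3′ on the gene's strand, 250 bases before to 50 bases after the transcription start, taken from RefSeq on build GRCm38.p6. Capitals mark words that were searched on both strands: the GC box GGGCGG, the CCAAT box by its own letters, the ETS word CCGGAAG, the NRF1 word TGCGCA and the YY1 word AAGATGG, each also as its reverse complement.
Med29, chr7:28392641-28392940, minus strand: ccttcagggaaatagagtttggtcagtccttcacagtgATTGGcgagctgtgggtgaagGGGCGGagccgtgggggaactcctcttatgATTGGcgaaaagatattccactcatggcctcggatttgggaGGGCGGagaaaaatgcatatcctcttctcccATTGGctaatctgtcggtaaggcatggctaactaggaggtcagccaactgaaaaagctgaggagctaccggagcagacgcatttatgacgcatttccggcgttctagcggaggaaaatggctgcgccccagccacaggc
Med26, chr8:72548261-72548560, minus strand: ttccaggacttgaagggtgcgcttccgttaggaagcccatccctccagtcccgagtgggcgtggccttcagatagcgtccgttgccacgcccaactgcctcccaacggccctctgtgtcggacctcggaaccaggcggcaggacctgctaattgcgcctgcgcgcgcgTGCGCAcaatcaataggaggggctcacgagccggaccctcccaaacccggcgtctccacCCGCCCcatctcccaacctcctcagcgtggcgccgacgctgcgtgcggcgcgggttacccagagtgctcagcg
Med22, chr2:26910593-26910892, minus strand: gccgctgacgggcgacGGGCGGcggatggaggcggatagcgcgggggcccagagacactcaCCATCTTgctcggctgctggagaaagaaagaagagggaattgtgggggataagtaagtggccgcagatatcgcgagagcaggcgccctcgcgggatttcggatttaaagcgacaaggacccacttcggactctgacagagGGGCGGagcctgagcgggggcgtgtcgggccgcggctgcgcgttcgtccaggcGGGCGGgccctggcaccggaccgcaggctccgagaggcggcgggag
Med15, chr16:17722898-17723197, minus strand: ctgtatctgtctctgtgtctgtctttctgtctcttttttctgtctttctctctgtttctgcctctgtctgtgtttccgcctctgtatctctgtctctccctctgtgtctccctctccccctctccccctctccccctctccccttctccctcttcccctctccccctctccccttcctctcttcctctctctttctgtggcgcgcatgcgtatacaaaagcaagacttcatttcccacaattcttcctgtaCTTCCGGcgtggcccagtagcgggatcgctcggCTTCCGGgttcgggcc

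No word was common to the pair that was lower and absent from the pair that was higher. GC boxes stood in the windows of Med29, Med26 and Med22, ETS words in that of Med15 alone of the 4, and CCAAT boxes in that of Med29 alone of the 4. The window of Med19 held CCAAT boxes, an ETS word and a YY1 word, and no GC box. Of the 33 subunit genes, 28 had a window in the RefSeq table. Cdk19, Med23, Med24, Med30 and Med8 had none there. Med10, Med15, Med27 and Med7 had several, and for every gene the window nearest the start in the deposited coordinates was used. The GC box was in 67.9% of the 28, against 36.1% of 27025 windows of all genes, the ETS word in 28.6% against 9.23%, and the NRF1 word in 25% against 8%. The windows of the members were also richer in CpG, with a median of 22 CpG against 7. The CCAAT box (39.3% against 37.8%) and the TATA word TATAAA (10.7% against 14.2%) were about as common as among all genes. E-boxes (CACGTG) were found in 14.3% of the members against 7.2%, the CRE word TGACGT in 14.3% against 7.58%, the YY1 word in 14.3% against 6.47%, the OTX or OBOX word TAATCC in 7.14% against 7.19%, and the NR5A2 word AAGGTCA in 0% against 4.61%, although the window of Med27 that was not used held it. The 27025 windows cover all genes of the RefSeq table, whether or not they were tested here, and the tested genes alone were not compared. Such a match is a run of letters and not evidence of a bound site.

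Of the 33 subunit genes, 31 had enough reads to be tested, and 14 of them (45.2%) differed between the groups at an adjusted p below 0.05, as did 44.4% of all 11344 genes tested. Med22, Med12l, Med30, Med15, Med28 and Med10 rose, and Med29, Med26, Med9, Med19, Med16, Med13l, Med13 and Med1 fell in Δm/wt embryos. The 6 that rose are 19.4% of the members, where 21.8% of all genes rose. The 8 that fell are 25.8%, where 22.6% of all genes fell. The shares of the complex thus lay near those of the whole transcriptome. The members had a median log2 fold change of -0.17, against 0.04 over all genes, and a median absolute log2 fold change of 1.51, against 1.60. In 5 of 31 members the values of the groups did not overlap, which was so for 16.2% of all genes. As the plot of fold changes by module shows, the border of head and tail, the middle, the tail and the kinase module each held members that rose and members that fell.

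**Figure D1:**
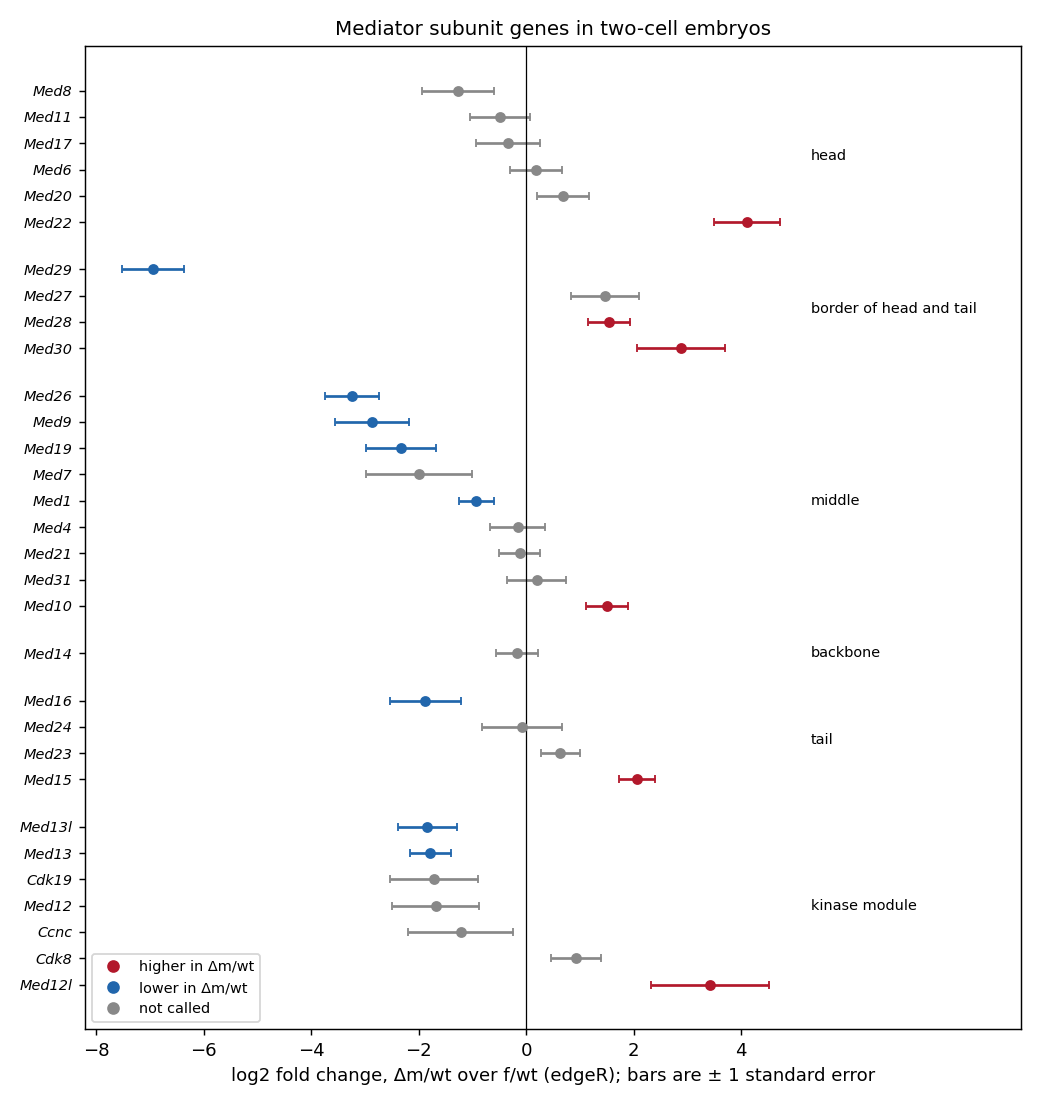
Log2 fold change of the 31 tested Mediator subunit genes, Δm/wt over f/wt, on the x axis, grouped by module down the page. Points are edgeR estimates with bars of 1 standard error, coloured by whether the gene was higher, lower or not called at an adjusted p of 0.05. Med29 at -6.94 and Med22 at 4.11 stand at the ends.

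The remaining subunit genes, Med18 and Med25, and the antisense row Med9os did not pass the filter on low counts. Med18, a head subunit that pairs with MED20 in yeast, had 47 reads summed over the Δm/wt embryos and 60 over the f/wt embryos. Med25, a tail subunit bound by the viral activator VP16, had 108 reads in Δm/wt embryos, of which 93 were in embryo 4, and 26 in f/wt embryos. Med9os had 8 reads in Δm/wt embryos, with 7 of the 8 embryos at 0, and 224 reads in f/wt embryos. In a fit with no filter, Med18 (-0.22, adjusted p = 0.903) and Med25 (2.46, adjusted p = 0.233) were not called and Med9os was lower (-4.27, adjusted p = 0.0424).

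The members that connect head and tail showed the widest contrast. Med29 encodes a subunit found in metazoans at this border. It had 1.04 to 6.89 CPM (median 1.88) in Δm/wt embryos and 88.5 to 561 CPM (median 288) in f/wt embryos. Every Δm/wt embryo lay far below every f/wt embryo, a difference of 123-fold (log2 fold change -6.94 ± 0.57, edgeR adjusted p = 2.41e-07). Counted from the lowest log2 fold change of all genes tested, Med29 ranked 111. The gene lies on chromosome 7 from 28385247 to 28392690 (mm10).

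Its neighbours in the complex went the other way or were not called. Med30 had 18.5 to 814 CPM (median 129) in Δm/wt embryos and 0.209 to 60.3 CPM (median 23.3) in f/wt embryos. Of the Δm/wt embryos, 6 of 8 exceeded all f/wt embryos, and embryo 3 stood alone at the top. The log2 fold change was 2.88 ± 0.82 (adjusted p = 0.00782), and 2.13 without Δm/wt embryo 3 (adjusted p = 0.0289). Med28 had 126 to 972 CPM (median 575) in Δm/wt embryos and 70.4 to 281 CPM (median 181) in f/wt embryos. It rose by 1.54 ± 0.39 on the log2 scale (adjusted p = 0.00362), with 6 of 8 Δm/wt embryos above all f/wt embryos. Med27 had 142 to 653 CPM (median 288) in Δm/wt embryos and 2.69 to 247 CPM (median 134) in f/wt embryos. The groups overlapped and the gene was not called (1.48 ± 0.63, adjusted p = 0.0631), although it passed without f/wt embryo 6 (1.76, adjusted p = 0.0417). Within embryos 4 to 8 of each group (5 in each), Med28 (1.40, adjusted p = 0.0527) and Med30 (1.19, adjusted p = 0.338) were not called, whereas Med29 was (-6.74, adjusted p = 3.09e-05). Med30 also missed the threshold when the model held a separate level for embryos 1 and 2, embryo 3, and embryos 4 to 8 (1.93, adjusted p = 0.0521). The f/wt embryo 3, summed with embryo 2, was in the first of these levels. The level for embryo 3 thus held Δm/wt embryo 3 alone, which took that embryo out of the comparison of groups.

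In the head, which contacts the polymerase and its promoter factors, 1 of 6 tested members rose. This was Med22, and the share is 16.7% where 21.8% of all genes rose. By edgeR, DESeq2 or limma-voom 0 members fell, where 22.6% of all genes fell by edgeR. At an unadjusted p below 0.05, 0 were lower by edgeR and limma-voom and 1, Med8, by DESeq2. MED22 pairs with MED11 in the yeast complex. Med22 had 62.4 to 530 CPM (median 246) in Δm/wt embryos and 1.25 to 30.9 CPM (median 18.3) in f/wt embryos. The groups were apart by 17.3-fold (log2 fold change 4.11 ± 0.62, adjusted p = 3.47e-05). Its partner Med11 was not called, at 18.2 ± 10.6 CPM in Δm/wt embryos and 25.5 ± 12.8 CPM in f/wt embryos (SD, n = 8 and 7). Med17, the scaffold of the head, was not called either, at 41.2 ± 45.1 CPM in Δm/wt embryos and 51.9 ± 20.4 CPM in f/wt embryos (log2 fold change -0.33 ± 0.60). The other head members tested were Med6 (0.18 ± 0.49), Med20 (0.69 ± 0.49) and Med8 (-1.26 ± 0.67), all with adjusted p above the threshold.

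In the middle, 4 of 9 tested members fell, which is 44.4% where 22.6% of all genes fell. MED26 is the subunit that brings elongation factors to the polymerase. Med26 had 5.82 to 52.5 CPM (median 20.2) in Δm/wt embryos and 118 to 659 CPM (median 152) in f/wt embryos. All Δm/wt embryos were below all f/wt embryos, and the log2 fold change was -3.24 ± 0.50 (adjusted p = 4.73e-05). The value of 659 CPM belonged to f/wt embryo 6 alone, and without it the log2 fold change was -2.72 (adjusted p = 0.000152). Exons of Med26 share 381 bp with Gm17435 on the other strand.

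Med19, a further middle subunit, was separated in the same way, with 0.416 to 15.2 CPM (median 7.49) in Δm/wt embryos and 19.9 to 75.4 CPM (median 31.1) in f/wt embryos. Its log2 fold change was -2.33 ± 0.65 (adjusted p = 0.00703). Exons of Med19 share 246 bp with Zdhhc5 and 19 bp with Tmx2 on the other strand, and whether the counting used strand is not given in the sources used here. Med9 had 1.38 to 15.1 CPM (median 8.06) in Δm/wt embryos and 8.39 to 152 CPM (median 40.1) in f/wt embryos. The ranges met, with 4 of 8 Δm/wt embryos below all f/wt embryos, and the log2 fold change was -2.87 ± 0.68 (adjusted p = 0.00226). In embryos 4 to 8 alone Med9 was not called (-1.96, adjusted p = 0.129).

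Med1 encodes the subunit through which nuclear receptors contact Mediator. It had 54.9 to 182 CPM (median 131) in Δm/wt embryos and 143 to 360 CPM (median 238) in f/wt embryos, and fell by 0.93 on the log2 scale (SE 0.33, adjusted p = 0.0252). Hprt, Gapdh and Ppia were tried as reference genes, which shifted the whole distribution of log2 fold changes upwards by 0.70 at its median, and the Med1 estimate was then -0.11 (adjusted p = 0.849). Med10 was the middle member that rose. It had 463 to 1591 CPM (median 668) in Δm/wt embryos and 68.1 to 491 CPM (median 258) in f/wt embryos, with 7 of 8 Δm/wt embryos above all f/wt embryos (log2 fold change 1.51 ± 0.39, adjusted p = 0.00365). Leaving out Δm/wt embryo 8, which gave the value of 1591 CPM, left it at 1.25 (adjusted p = 0.00899). Exons of Med10 share 4168 bp with the RNA gene Gm26819 on the other strand, which is not among the genes counted.

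The hinge of the middle is formed by MED7 and MED21 in yeast. Med21 had 97.1 to 654 CPM (median 282) in Δm/wt embryos and 227 to 399 CPM (median 301) in f/wt embryos. The Δm/wt embryos lay on both sides of the f/wt range, and no difference was called (-0.12 ± 0.38, adjusted p = 0.820). Exons of Med21 share 348 bp with Gm6654 and 197 bp with Tm7sf3 on the other strand. Med7 had 0.751 to 412 CPM (median 6.96) in Δm/wt embryos and 42.0 to 434 CPM (median 265) in f/wt embryos. In Δm/wt, 7 of 8 embryos were below every f/wt embryo, and embryo 4 alone, at 412 CPM against a next highest value of 27.0 CPM, was near the top of the f/wt range. Med7 was not called with all embryos (-1.99 ± 0.98, adjusted p = 0.104) and was called without Δm/wt embryo 4 (-4.57, adjusted p = 0.000108). Med4 (-0.15 ± 0.51) and Med31 (0.20 ± 0.54) were not called. Med31 shares 455 bp of exon with the transcript 4930563E22Rik on the other strand.

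MED14, the backbone, showed no called difference. Med14 had 103 to 458 CPM (median 178) in Δm/wt embryos and 82.4 to 524 CPM (median 153) in f/wt embryos. The ranges coincided almost fully (log2 fold change -0.17 ± 0.40, adjusted p = 0.750).

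In the tail, Med15 rose and Med16 fell. MED15 is a target of several activators, among them the sterol regulators of the SREBP family. Med15 had 165 to 523 CPM (median 300) in Δm/wt embryos and 40.1 to 115 CPM (median 70.5) in f/wt embryos. Every Δm/wt embryo exceeded every f/wt embryo (log2 fold change 2.06 ± 0.34, adjusted p = 7.48e-05). Med16 had 1.72 to 11.2 CPM (median 3.29) in Δm/wt embryos and 5.43 to 28.5 CPM (median 19.7) in f/wt embryos. It fell by 1.87 on the log2 scale (SE 0.66, adjusted p = 0.0267), with 5 of 8 Δm/wt embryos below all f/wt embryos. This call was lost without f/wt embryo 1 (-1.74, adjusted p = 0.0602). Med23, which is bound by the ETS factor ELK1, had 124 ± 56.2 CPM in Δm/wt embryos and 79.9 ± 19.3 CPM in f/wt embryos (SD, n = 8 and 7) and was not called (0.64 ± 0.37). Med24 was not called (-0.07 ± 0.75).

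**Figure D2:**
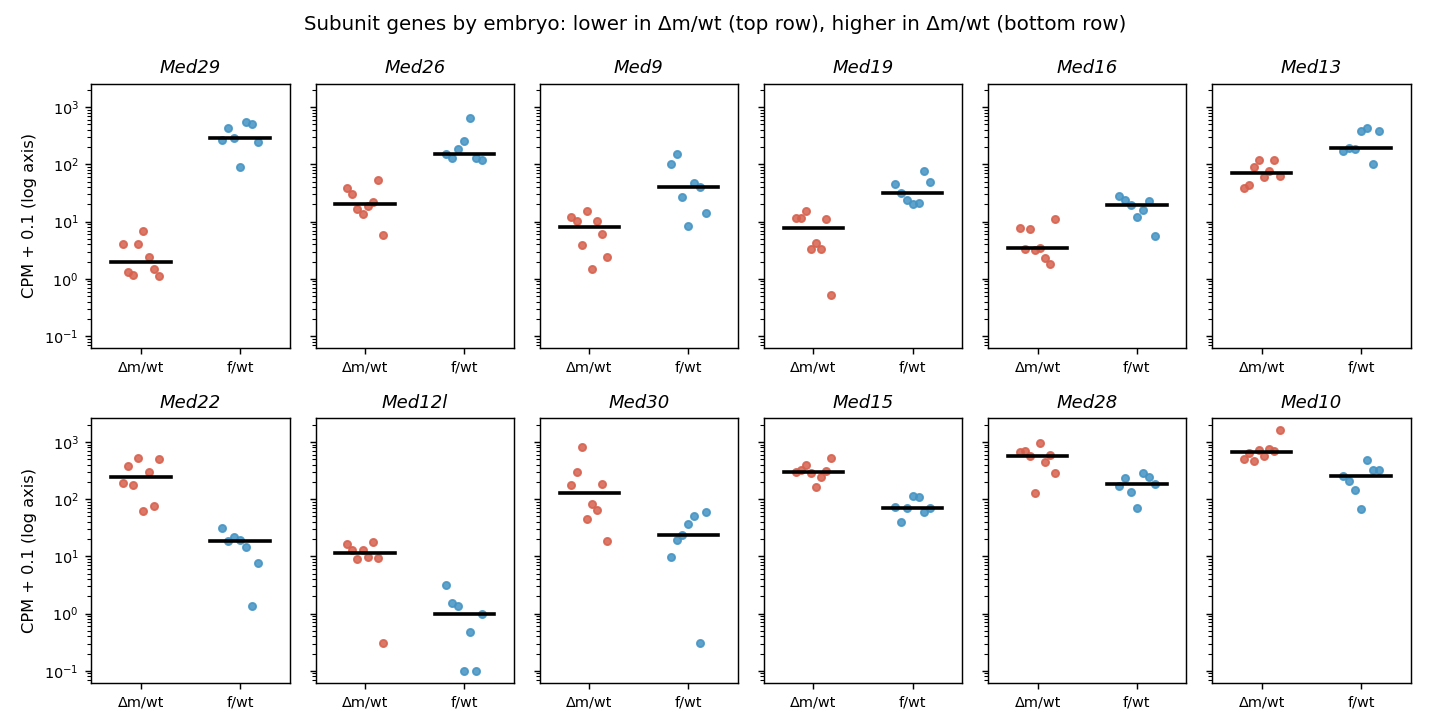
CPM of 12 called subunit genes in each embryo on a log axis with 0.1 added, Δm/wt left of f/wt. Points are samples (8 Δm/wt, 7 f/wt with embryos 2 and 3 summed) and black lines are medians. Med29, Med26 and Med19 in the top row and Med22 and Med15 in the bottom row have no overlap between the groups, while single embryos stand apart for Med12l and Med30.

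The kinase module regulates the core by docking on it, and MED13 makes the contact. Med13 had 39.1 to 121 CPM (median 69.6) in Δm/wt embryos and 100.3 to 430 CPM (median 192) in f/wt embryos. In 6 of 8 Δm/wt embryos it was below all f/wt embryos (log2 fold change -1.78 ± 0.38, adjusted p = 0.000959). Med13l, its paralog, had 4.08 to 21.3 CPM (median 15.7) in Δm/wt embryos and 10.7 to 96.2 CPM (median 41.0) in f/wt embryos. It fell by 1.83 on the log2 scale (SE 0.55, adjusted p = 0.0107). Scaled to the reference genes it was not called (-1.14, adjusted p = 0.166). Exons of Med13 share 800 bp with Brip1os, and those of Med13l 55 bp with Gm43785, both on the other strand.

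MED12 activates the kinase. Med12 had 0.125 to 9.87 CPM (median 5.61) in Δm/wt embryos and 1.70 to 45.6 CPM (median 10.2) in f/wt embryos, and was not called (-1.68 ± 0.81, adjusted p = 0.0956). Med12l, its paralog, had 0.208 to 17.6 CPM (median 11.2) in Δm/wt embryos and 0 to 3.10 CPM (median 0.904) in f/wt embryos, where 2 of 7 samples had no read. All Δm/wt embryos but embryo 8 exceeded all f/wt embryos (log2 fold change 3.42 ± 1.09, adjusted p = 0.0157). Among embryos 4 to 8 it was 4.24 and missed the threshold (adjusted p = 0.0596). Exons of Med12l share 1948 bp with Igsf10 and 9 bp with P2ry12 on the other strand, and both of those genes had 0 counts in every sample.

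Cdk8 and Cdk19 encode the alternative kinases. Cdk8 had 112 to 333 CPM (median 262) in Δm/wt embryos and 12.7 to 201 CPM (median 142) in f/wt embryos. In 5 of 8 Δm/wt embryos it exceeded all f/wt embryos, without a call by edgeR (0.93 ± 0.46, adjusted p = 0.105). It was called higher by limma-voom (1.30, adjusted p = 0.0323) and with the reference genes (1.66, adjusted p = 0.0119). Cdk19 had 0.635 to 94.6 CPM (median 5.66) in Δm/wt embryos and 17.1 to 101 CPM (median 59.1) in f/wt embryos. In 6 of 8 Δm/wt embryos it was below all f/wt embryos, and embryo 8 held the highest value. By edgeR it was not called with all embryos (-1.71 ± 0.82, adjusted p = 0.0949) and was called without Δm/wt embryo 8 (-2.84, adjusted p = 0.00562). Ccnc, the cyclin shared by both kinases, had 0.215 to 21.6 CPM (median 3.11) in Δm/wt embryos and 0 to 31.0 CPM (median 17.6) in f/wt embryos and was not called (-1.22 ± 0.98). Its exons share 276 bp with Tstd3 on the other strand.

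Because the paralogs are alternatives within the module, their counts were also compared as a ratio inside each embryo, which needs no scaling between libraries. The value of a ratio depends on the length and 3′ sequence of both transcripts, so only its difference between groups is read. The log2 ratio of Cdk19 to Cdk8 was -7.57 to -0.25 (median -5.74) in Δm/wt embryos and -3.50 to 2.22 (median -0.49) in f/wt embryos. In 6 of 8 Δm/wt embryos the ratio was below that of every f/wt sample. The difference of means was -4.38 (exact two-sided permutation test over 6435 splits, p = 0.00451, adjusted over the 3 pairs p = 0.00676).

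The log2 ratio of Med12l to Med12 was -4.61 to 5.71 (median 1.19) in Δm/wt embryos and -9.77 to -0.40 (median -4.91) in f/wt embryos. All Δm/wt embryos but embryo 8 had a higher ratio than every f/wt sample. The difference of means was 5.42 (exact permutation p = 0.00420, adjusted p = 0.00676). The ratios of f/wt embryos 5 and 7, which had no Med12l read, are set by the 0.5 added to each count. Both ends of the Δm/wt range rest on single reads, with 1 Med12 read in embryo 5 and 1 Med12l read in embryo 8. The difference was 4.70 with 2 counts added, 4.54 without f/wt embryo 7 and 6.22 without Δm/wt embryo 8, and passed the test each time (adjusted p = 0.00676, 0.0145 and 0.00175). The log2 ratio of Med13l to Med13, both of which fell, was -4.84 to -0.89 (median -2.40) in Δm/wt embryos and -3.86 to -0.81 (median -2.80) in f/wt embryos, with a difference of -0.03 (exact permutation p = 0.954). Within embryos 4 to 8 the differences for the first 2 pairs were -4.57 and 5.91 (exact permutation, adjusted p = 0.0476 for both). Neither Cdk19 nor Cdk8 was called singly by edgeR with all embryos, where p was adjusted over all genes tested. Their ratio passed its test, where p was adjusted over the paralog pairs only. By limma-voom both genes were called, Cdk19 lower (-3.12, adjusted p = 0.00228) and Cdk8 higher (1.30, adjusted p = 0.0323). The ratio therefore cannot be read as showing what the single genes do not.

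**Figure D3:**
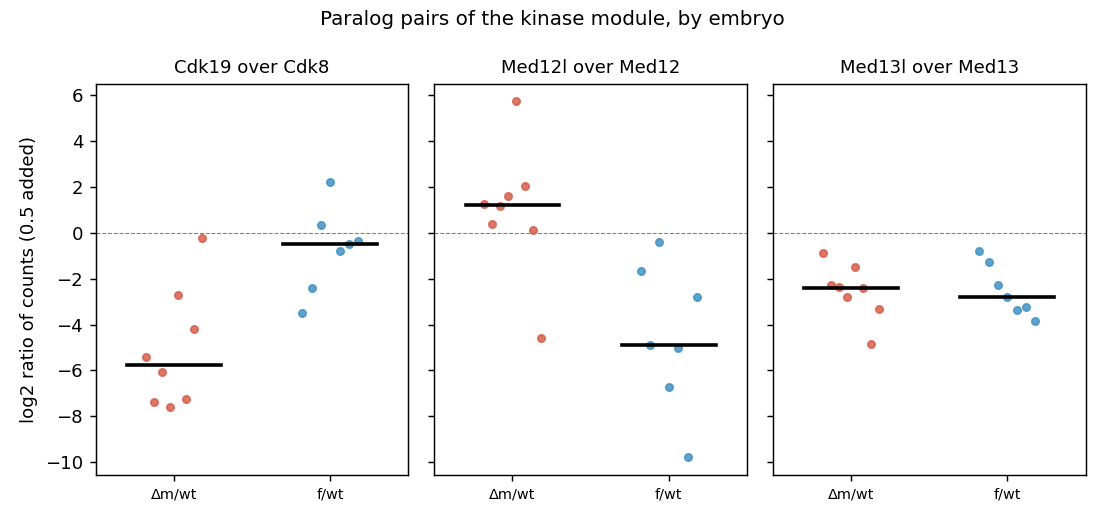
Log2 ratio of read counts of each paralog pair in every embryo (y axis, 0.5 added to each count), Δm/wt left of f/wt. Points are samples and black lines are medians, at -5.74 against -0.49 for Cdk19 over Cdk8, 1.19 against -4.91 for Med12l over Med12, and -2.40 against -2.80 for Med13l over Med13.

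The embryos of a group varied among themselves. The median coefficient of variation of the 31 tested members was 60.6% in Δm/wt embryos and 51.7% in f/wt embryos, against 77.5% and 72.0% for all genes tested in the same groups. Single libraries often set the ends of the ranges. Δm/wt embryo 8 was the highest or the lowest of its group in 18 of 31 members (highest in 9 and lowest in 9), more often than any other sample. Without it, 6 members rose and 9 fell, and the shares of all genes in that fit are not given here. The summed level of all subunit genes was 3052 to 5096 CPM (median 4181) in Δm/wt embryos and 2463 to 5082 CPM (median 3246) in f/wt embryos, so that the groups overlapped. In embryos 4 to 8 of each group alone, 3 members rose (13.4% of all genes did) and 4 fell (15.3% of all genes did). These were Med22, Med15 and Med10, and Med29, Med26, Med19 and Med13, and the same 7 genes were called under each of the 25 other settings tried.

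Several members start close to a neighbour, and 8 had an annotated gene on the other strand starting within 1000 bp. These neighbours were looked up after the values of the members had been seen, and their values are given as a description. Of them, Tmx2 overlaps Med19 over 427 bp and 4930563E22Rik overlaps Med31 over 455 bp, so reads in the shared part are uncertain. Paf1, a subunit of a polymerase elongation complex that starts 306 bp from Med29, had 0.430 to 14.6 CPM (median 5.57) in Δm/wt embryos and 4.41 to 130 CPM (median 33.4) in f/wt embryos (log2 fold change -2.81, adjusted p = 0.00818). Tmx2, 426 bp from Med19, was also lower (-4.13, adjusted p = 0.0108). In both pairs the neighbours were lower along with the subunit gene. The calls of the neighbours were lost with the reference genes (Paf1 adjusted p = 0.0704, Tmx2 0.0865) and in embryos 4 to 8 alone (Paf1 0.0785, Tmx2 0.102).

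Apart from Med9 and Med9os, the other pairs were not alike in this respect. Rpl7a, which encodes a ribosomal protein and starts 165 bp from Med22, had 15.1 to 105 CPM (median 35.1) in Δm/wt embryos and 57.3 to 101 CPM (median 84.5) in f/wt embryos, and was not called (-0.82, adjusted p = 0.141) while Med22 rose. Bysl, 104 bp from Med20 (-2.44, adjusted p = 0.0102), and 4930563E22Rik, 454 bp from Med31 (-3.75, adjusted p = 0.0179), fell beside members that were not called. With the reference genes neither was called (adjusted p = 0.151 for Bysl and 0.0783 for 4930563E22Rik), nor was Bysl in embryos 4 to 8 alone (0.0744). Gm14634, 305 bp from Med14, was not called. Med9os, which starts 67 bp from Med9, was too low for the main fit. In the edgeR fit with no filter it was lower (-4.27, adjusted p = 0.0424), along with Med9.

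The proteins that Mediator works with were examined as a list of 48 genes: the subunits of RNA polymerase II, the general transcription factors, the kinase and repair factor TFIIH, factors of pause release and elongation, and Nipbl. Of the 46 tested, 4 rose and 21 fell, which is 45.7% lower where 22.6% of all genes were lower. Their median log2 fold change was -1.51, against -0.17 for the Mediator members and 0.04 for all genes. The list was chosen with earlier results of these data known, and this difference from Mediator was not tested. With the reference genes 8 partner genes were higher and 16 lower, where 31.2% of all genes were higher and 14% lower.

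Of 13 polymerase subunit genes, 6 fell (46.2%, against 22.6% of all genes) and 1 rose (7.69%, against 21.8% of all genes). Polr2a, the largest and catalytic subunit, had 2.91 to 43.3 CPM (median 14.5) in Δm/wt embryos and 52.2 to 403 CPM (median 211) in f/wt embryos, with no overlap (log2 fold change -3.47 ± 0.57, adjusted p = 7.71e-05). The small subunits Polr2k (-4.35 ± 0.84) and Polr2l (-3.71 ± 0.83), which all nuclear RNA polymerases use, fell as well. Polr2c, named after its value was seen as the gene that rose, had a log2 fold change of 1.76 (adjusted p = 0.0173), and was not called in embryos 4 to 8 alone (1.40, adjusted p = 0.144) or without f/wt embryo 8 (1.54, adjusted p = 0.0509). Polr2j and Polr2g had the highest levels among those not called, with log2 fold changes of 0.63 and 1.46.

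Of 8 general transcription factors, which are Tbp of TFIID and subunits of TFIIA, TFIIB, TFIIE and TFIIF, 4 fell (50%, against 22.6%) and 1 rose (12.5%, against 21.8%). Gtf2e1, the larger subunit of TFIIE, had 0.416 to 6.01 CPM (median 3.27) in Δm/wt embryos and 59.6 to 171 CPM (median 86.8) in f/wt embryos (-5.17 ± 0.60, adjusted p = 2.78e-06). Gtf2f1, the larger subunit of TFIIF, fell by 4.14 on the log2 scale. Tbp, the TATA-binding protein, was close to the threshold (-1.40, adjusted p = 0.0486). Its call was lost with the reference genes (-0.78, adjusted p = 0.274) and without any 1 of Δm/wt embryos 2, 4, 5, 6 and 8 and f/wt embryos 1, 2 and 3 (summed), 5, 7 and 8. Gtf2b, which bridges the promoter complex and the polymerase, rose by 2.49 (adjusted p = 0.000673). The TFIIA genes Gtf2a1 (-0.72) and Gtf2a2 (1.27) were not called.

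Of 8 tested TFIIH genes, 3 fell (37.5%, against 22.6%) and 0 rose by edgeR (21.8% of all genes did), and 0 were higher at an unadjusted p below 0.05 by edgeR, DESeq2 or limma-voom. Those that fell were Gtf2h5 (-3.36 ± 0.47), the smallest subunit, Ercc3 (-3.35 ± 0.78), the translocase that opens promoter DNA, and Mnat1 (-2.84 ± 0.82), the assembly factor of the TFIIH kinase. Cdk7, that kinase, had 322 ± 166 CPM in Δm/wt embryos and 209 ± 42.1 CPM in f/wt embryos (SD, n = 8 and 7) and was not called (0.62 ± 0.35). Gtf2h1 was not called either (-0.03 ± 0.47).

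Of 16 genes of pause release and elongation, 8 fell (50%, against 22.6%) and 1 rose (6.25%, against 21.8%). Cdk9, the kinase that releases paused polymerase, had 5.69 to 39.1 CPM (median 8.49) in Δm/wt embryos and 78.1 to 267 CPM (median 148) in f/wt embryos, with no overlap (-3.61 ± 0.50, adjusted p = 1.70e-05). Ell2, a subunit of the super elongation complex that MED26 recruits, fell by 3.42 (adjusted p = 9.20e-06), and Supt4a of the pausing factor DSIF fell by 2.73. Ell, named after its value was seen, rose by 1.94 (adjusted p = 0.000916). Nelfa was not called (-0.89). Nipbl, which loads cohesin and binds Mediator at enhancers, rose in all 8 Δm/wt embryos above all f/wt embryos (1.88 ± 0.42, adjusted p = 0.00135).

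**Figure D4:**
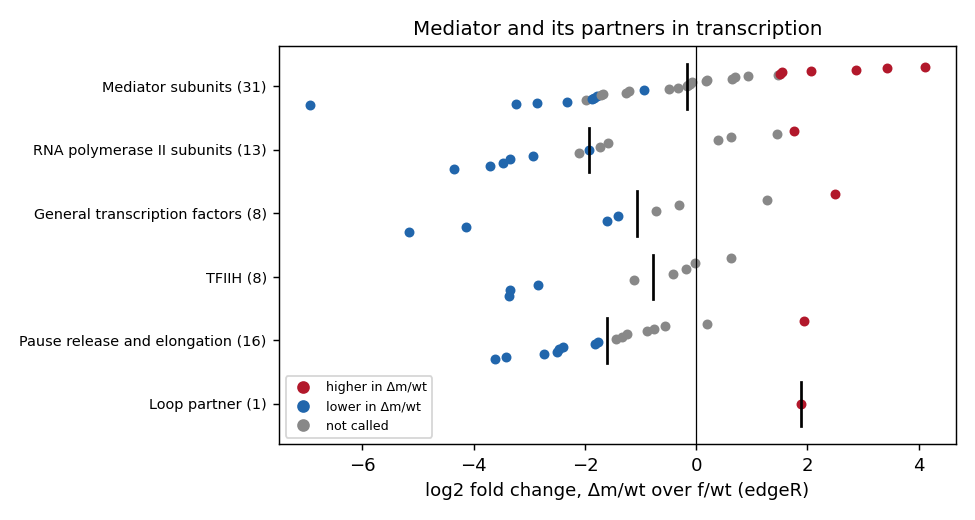
Log2 fold change, Δm/wt over f/wt, of the 31 tested Mediator subunit genes and of 46 tested partner genes by role (rows, number tested in brackets). Points are genes coloured by edgeR call and black lines are medians, at -0.17 for Mediator and -1.93 for the RNA polymerase II subunits.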

How the data were processed

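Single two-cell embryos, 8 Δm/wt and 8 f/wt, were profiled by oligo-dT primed RNA-seq. The deposited values are raw read counts per RefSeq gene, which the authors obtained by aligning quality-filtered reads to mm10 with TopHat2 2.0.6 and counting unique alignments with HTSeq 0.6.1. Strand setting and annotation release are not given in the sources used here, and reads in overlapping or near-identical genes are uncertain. Beyond the cases in the Results, exons are shared on the other strand by Med15 (223 bp), Med29 (64 bp) and Med7 (609 bp). The same holds for Cdk19 (268 bp), Med27 (145 bp) and Med20 (1569 bp). Tables of repeat classes were not used here.

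Groups were taken from the sample labels. The top 60% of genes by summed counts (11344) were tested with the quasi-likelihood test of edgeR 4.0.16 (R 4.3.3) after TMM scaling, with no covariate and Benjamini-Hochberg adjustment over all of them, at a threshold of 0.05. The fitting code was first tested on simulated counts. Paralog ratios, with 0.5 counts added, were compared by exact two-sided permutation. Alternatives covered scaling, filter, DESeq2 1.42.0, limma 3.58.1 (voom), sets of embryos and single embryos left out. Values at every level were given for the 5 members that fell most, the 5 that rose most, the 2 highest not called and the paralogs, and in each partner role for up to 3 genes past the threshold with at least 10 CPM and the 2 highest not called. Med1 and Med10, Med7, Med14, Tbp and the neighbours were described after their values were seen. The members and gene lists were chosen with earlier results of these data known. A partner gene and a neighbour that these rules name are not reported here. Gene roles and modules are textbook knowledge.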

Additional observations from a re-analysis of the deposited data

Results flagged for a closer look

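In 6 of 62 tested sets of values (31 members in each group), 1 embryo lay farther from its group than Dixon's test at the 95% level allows. Chance flags about 1 set in 20 where values follow a normal distribution, and these 6 are 9.68%. The test was run on CPM without a log, all 6 flagged values were high, and the sets share the same embryos. The 9.68% can therefore not be read as an excess over chance. In Δm/wt embryo 8, Cdk19 was at 94.6 CPM where the next embryo was at 37.6 CPM, Med10 was at 1591 CPM where the next was at 738 CPM, and Med14 was at 458 CPM where the next was at 207 CPM. Med7 was at 412 CPM in Δm/wt embryo 4, with the next at 27.0 CPM. Med30 was at 814 CPM in Δm/wt embryo 3, with the next at 298 CPM. Med26 was at 659 CPM in f/wt embryo 6, with the next at 261 CPM. Leaving out the embryo ended no call for Med10, Med26 or Med30, and gave a call for Cdk19 and Med7.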

How the results depend on the processing

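All 14 called members kept their direction under the 25 alternatives, and 7 of them kept their call under each. Embryos 4 to 8 alone gave 3 members higher and 4 lower. Scaling to Hprt, Gapdh and Ppia moved the median of all genes by 0.70 and gave 10 members higher and 5 lower, and 8 partner genes higher and 16 lower, where 31.2% of all genes were higher and 14% lower. Library totals moved it by -0.36 and gave 6 members higher and 10 lower, and 4 partner genes higher and 25 lower. Among genes named in this report, library totals gave further calls for Cdk19, Med12, Gtf2a1 and Nelfa, all lower. With f/wt embryos 2 and 3 as 2 samples, Med12, Med27, Polr2g and Gtf2a2 were called as well. Leaving out single samples gave 6 to 7 members higher and 7 to 9 lower, and 4 to 6 partners higher and 20 to 21 lower. Embryo numbers did not pair the samples (6 same-number pairs, r of -0.07 to 0.09), and the fit with a replicate block by number called 6 members higher and 9 lower, and 4 and 21 partners. The shares of all genes called are not given here for library totals, for single samples left out or for the block. The counts from those fits can therefore not be set against all genes. The block ended the calls of Med16 and Med30 and gave calls for Cdk19, Med27 and Med7. Beyond calls named in the report, the reference genes ended that of Med16. They gave further calls for Med20, Med23, Med27, Polr2j, Polr2g, Gtf2a2 and Cdk7. DESeq2 gave further calls for Med12, Med27, Polr2g and Gtf2a2, and limma-voom for Med27, Med7, Gtf2a2 and Rpl7a. Signs turned only for genes and a ratio that were not called. With the reference genes these were Med11 (0.12), Med14 (0.74), Med17 (0.28), Med21 (0.39), Med24 (0.64), Med4 (0.28), Gtf2a1 (0.02) and Gtf2h1 (0.85). With embryos 4 to 8 they were Med24 (0.51), Med6 (-0.12), Gtf2h1 (0.30) and the Med13l to Med13 ratio (0.14). With a term for 3 sets of embryos they were Med24 (0.15) and Gtf2h1 (0.06). With library totals they were Med31 (-0.22) and Med6 (-0.23), with limma-voom Med31 (-0.03) and Med6 (-0.17), and with the replicate block Med31 (-0.04) and Med6 (-0.07). Without single samples the log2 values spanned -0.44 to 0.01 for Med14, -0.39 to 0.02 for Med21, -0.44 to 0.13 for Med24 (0.29 without f/wt 2 and 3), -0.36 to 0.03 for Med4, -0.05 to 0.34 for Med6, -0.44 to 0.12 for Gtf2h1 and -0.27 to 0.30 for the Med13l to Med13 ratio (0.17 without f/wt 2 and 3). The cause of these changes was not tested. Of 1500 values of single genes under alternatives, 1383 kept direction and call, 36 lost the call and 40 gained one.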
